A study of Mus musculus with 24 samples.

Results

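Interferon-stimulated genes were followed in the spinal cord of mice after spared nerve injury, in which the common peroneal and tibial branches of the sciatic nerve were tied and cut, and after sham surgery, in which the nerve and its branches were exposed only. Tissue was taken on day 3, 7 or 14 after the injury, and the only sham group is labelled day 3, so days 7 and 14 have no sham of their own day. The 4 groups each consisted of 3 libraries of input RNA and 3 enriched with an antibody against m6A (N6-methyladenosine), 24 samples in all. The sources used here do not give strain, sex, age or the number of mice behind a library. The members are 38 genes chosen by symbol among the 32884 genes of the expression table, each found once. Levels are FPKM (fragments counted on a gene, scaled to its length and to the mapped fragments of the library) in the 12 input libraries, and the depth of the libraries is unknown. Of the 38 genes, 32 had a mean over the 12 libraries of at least 0.5 FPKM and entered the tests, as did 15564 genes in all. The 6 below that level were Zbp1, Oas2, Oas3, Oasl1, Mx1 and Ifi44.

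Interferons of type I bind a receptor of IFNAR1 and IFNAR2, and the kinases JAK1 and TYK2 then phosphorylate STAT2 at the receptor. STAT2 and IRF9 are parts of a complex, ISGF3, that binds the interferon-stimulated response element in promoters, and the genes it turns on encode sensors of viral RNA, proteins that block viral replication, and regulators of the same pathway. In the central nervous system microglia, astrocytes, endothelial cells and neurons can all respond to interferon.

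Libraries of one group were close to each other, with an exception in 2 groups that touches nearly every value given here. Across 54 genes with at least 200 FPKM in every library, the spread of the ratio between libraries of one group was 1.2 to 1.67%, against 4.26 to 8.57% between groups, when sham library 3 and day 7 library 3 were set aside. Against the others, those 2 libraries had a spread of 28.1 to 32.9%, and of 15% between each other. Their correlation over all genes tested was 0.983, against 0.925 to 0.942 with the others, as a description over genes. The summed level of the RNAs Gm23935 and Lars2 was 3998 and 3921 FPKM in sham libraries 1 and 2, 2.55 in sham library 3, 1.68 in day 7 library 3 and 337 to 534 in the other 8. Results are therefore given with all 12 libraries and without sham library 3 and day 7 library 3. The labels do not say that the 3 libraries of a group came from separate mice, so p-values measure only the spread between these libraries, which may be technical.

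The genes were chosen by symbol and not by sequence, and their promoters were searched for the response element as a description. RefSeq promoters (build GRCm38.p6, 250 bases before to 50 after the start) were matched for 28 of the 38 genes. The response element was searched as GAAANNGAAA on one strand or TTTCNNTTTC on the other, and 16 of the 28 genes (57.1%) held it, against 3.99% of the 27025 genes with a promoter. The gamma-activated site, searched as TTCNNNGAA, which reads the same on both strands, was in 6 of the 28 (21.4%) against 9.55% of all genes. The 60 bases around the match are printed 5′ to 3′ along the gene's own strand, with each match in capitals, where overlapping matches run on.
Ifit1, chr19:34640770-34640829, plus strand: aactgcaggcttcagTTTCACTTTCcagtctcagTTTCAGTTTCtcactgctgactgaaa
Ifit3, chr19:34583365-34583424, plus strand: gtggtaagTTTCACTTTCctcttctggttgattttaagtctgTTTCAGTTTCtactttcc
Isg15, chr4:156200856-156200915, minus strand: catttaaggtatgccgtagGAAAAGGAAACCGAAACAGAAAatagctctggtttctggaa
Bst2, chr8:71537565-71537624, minus strand: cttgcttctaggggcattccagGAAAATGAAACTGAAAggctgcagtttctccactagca
Gbp3, chr3:142559977-142560036, plus strand: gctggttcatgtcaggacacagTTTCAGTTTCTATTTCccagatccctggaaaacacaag
Stat2, chr10:128270251-128270310, plus strand: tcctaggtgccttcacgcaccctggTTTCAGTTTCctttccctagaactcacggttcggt
Isg15 had 3 overlapping matches, Ifit1, Ifit3, Bst2 and Gbp3 had 2 each, and Stat2 had 1. The Ifit3b window was identical to that of Ifit3. No match was found in the windows of 12 of the 28 genes, Irf7, Irf9, Ifit2 and Oasl2 among them, which says only that these letters are not in those 300 bases.

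In sham libraries 1 and 2 the interferon-stimulated genes stood above the injured libraries at each of the 3 days, and in sham library 3 many of them did not. Sham libraries 1 and 2 were both above the 8 injured libraries other than day 7 library 3 for 27 of the 32 genes tested (84.4%), against 5.1% of all genes tested, and both below them for 0 of the 32, against 7.82%. Counted over the 9 injured libraries with day 7 library 3, they were above for 18 of the 32, against 3.06% of all genes. With sham library 3 included, all 3 sham libraries were above all 9 injured ones for 1 gene, Gbp7, against 0.308% of all genes. The mean of sham libraries 1 and 2 was 1.12 to 3.07 times that of the 8 injured libraries over the 32 genes, with a median of 1.58, against a median of 0.987 over all genes tested. At least 2 times was reached by 9 of the 32, and by 79 of the 15564. In bulk tissue, fewer responding cells and less RNA per cell cannot be told apart. Sham libraries 1 and 2 also stood above the same 8 injured libraries in the summed level of Gm23935 and Lars2, with 3998 and 3921 against 337 to 534 FPKM. What this difference between libraries contributes to the levels of the interferon-stimulated genes was not tested.

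**Figure D1:**
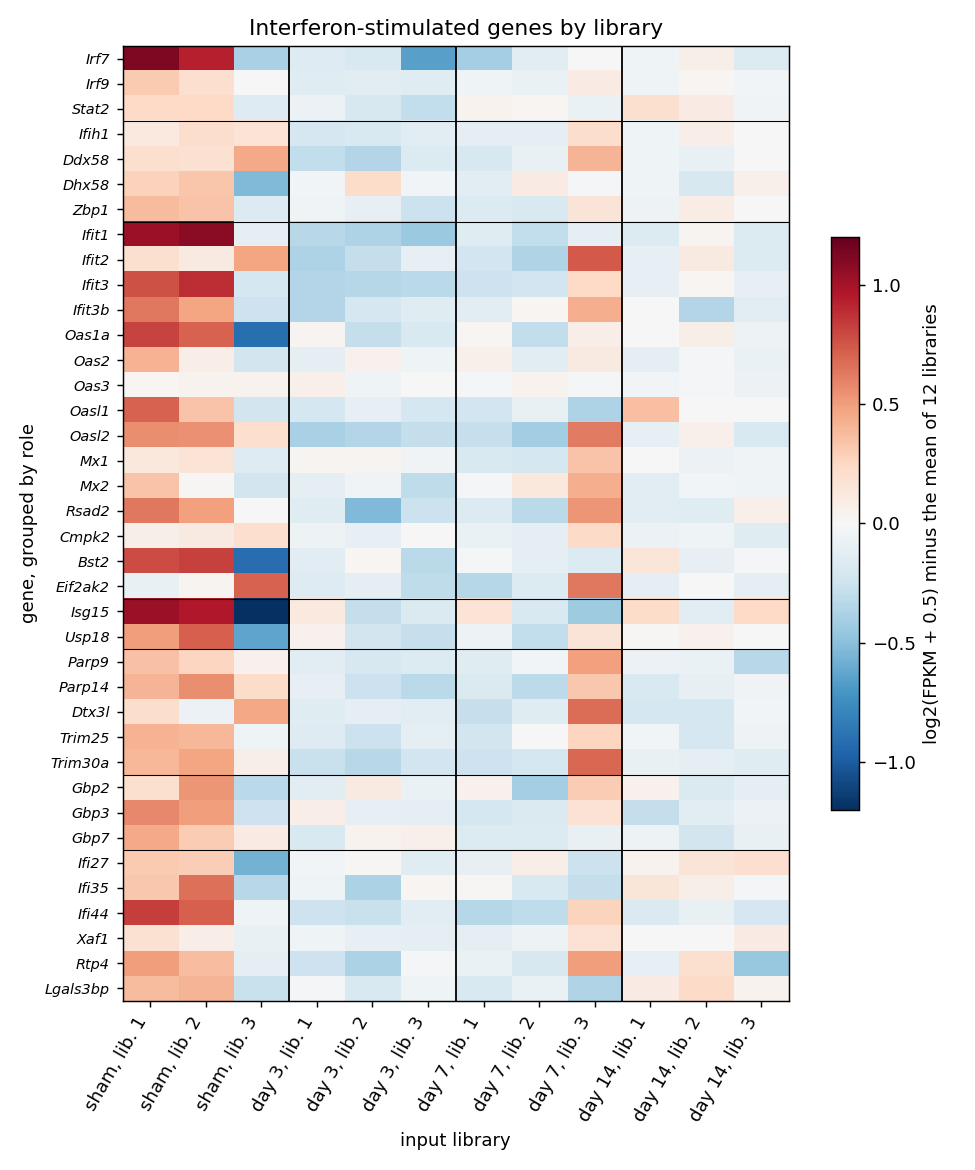
Each row is 1 of the 38 genes, grouped by role, and each column 1 of the 12 input libraries; colour is log2(FPKM + 0.5) minus the gene's mean over the 12 libraries. Sham libraries 1 and 2 are the reddest columns for most genes, sham library 3 is blue for Isg15, Bst2 and Oas1a and red for Eif2ak2 and Ifit2, and day 7 library 3 is redder than the other injured libraries for many genes.

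Among the transcription factors, Irf7, which amplifies the response and is induced by it, had 3.00, 2.58 and 0.731 FPKM in sham libraries 1 to 3. It had 0.947, 0.924 and 0.527 FPKM on day 3, 0.718, 0.980 and 1.11 on day 7, and 1.06, 1.19 and 0.938 on day 14. Sham libraries 1 and 2 were thus above every injured library, and sham library 3 lay within the injured range. Irf9, the DNA-binding part of ISGF3, had 3.36, 3.07 and 2.62 FPKM in sham, 2.32, 2.34 and 2.31 on day 3, 2.5, 2.44 and 2.82 on day 7, and 2.5, 2.67 and 2.53 on day 14. Stat2, which acts in type I and III signalling, had 6.12, 6.10 and 4.53 FPKM in sham, 4.83, 4.40 and 4.07 on day 3, 5.26, 5.19 and 4.80 on day 7, and 5.91, 5.49 and 4.96 on day 14. For both genes sham libraries 1 and 2 were the highest of the 12, and sham library 3 lay among the injured libraries.

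The Ifit genes, whose products bind viral RNA or support those that do, lie together on chromosome 19 in the order Ifit2, Ifit3, Ifit3b and Ifit1, with gaps of 7.11, 19.2 and 27.5 kb. Coordinates are those of the deposited table, in which each of the 38 genes overlapped the RefSeq gene of the same name on GRCm38.p6. Ifit1 (chr19:34640871-34650009) had 4.23, 4.42 and 1.65 FPKM in the sham libraries and 1.35, 1.29 and 1.2 on day 3. It had 1.60, 1.39 and 1.64 on day 7 and 1.58, 1.87 and 1.57 on day 14. Sham libraries 1 and 2 were above every other library, and sham library 3 overlapped the injured groups. Ifit3 (chr19:34583531-34588731), among the highest of the 38 genes, had 13.5, 14.7 and 6.64 FPKM in sham, 5.94, 5.99 and 6.10 on day 3, 6.43, 6.51 and 9.23 on day 7, and 7.19, 7.88 and 7.18 on day 14. Ifit3b, its near-identical neighbour, had 7.04, 6.24 and 3.58 FPKM in sham, 3.30, 3.72 and 3.89 on day 3, 3.91, 4.45 and 6.08 on day 7, and 4.37, 3.31 and 3.91 on day 14. The pair share the high values in sham libraries 1 and 2, but the sources do not say how reads were divided between the copies, and their separate levels are uncertain.

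Ifit2 followed another order. It had 3.50, 3.27 and 4.38 FPKM in sham, 2.21, 2.37 and 2.77 on day 3, 2.48, 2.23 and 5.33 on day 7, and 2.78, 3.27 and 2.63 on day 14. Its highest libraries were day 7 library 3 and sham library 3, the 2 that stand apart. Eif2ak2, which encodes PKR, the kinase that halts translation on sensing double-stranded RNA, did likewise, with 2.53, 2.80 and 4.76 FPKM in sham, 2.40, 2.47 and 2.10 on day 3, 2.05, 2.38 and 4.50 on day 7, and 2.49, 2.72 and 2.47 on day 14. Apart from those 2 libraries, its values lay between 2.05 and 2.80 FPKM and sham overlapped the injured groups. Cmpk2, a mitochondrial nucleotide kinase that neighbours Rsad2 on chromosome 12, had 7.05, 7.24 and 7.78 FPKM in sham, 6.41, 6.23 and 6.68 on day 3, 6.30, 6.16 and 7.92 on day 7, and 6.35, 6.43 and 6.02 on day 14, with day 7 library 3 again the highest.

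**Figure D2:**
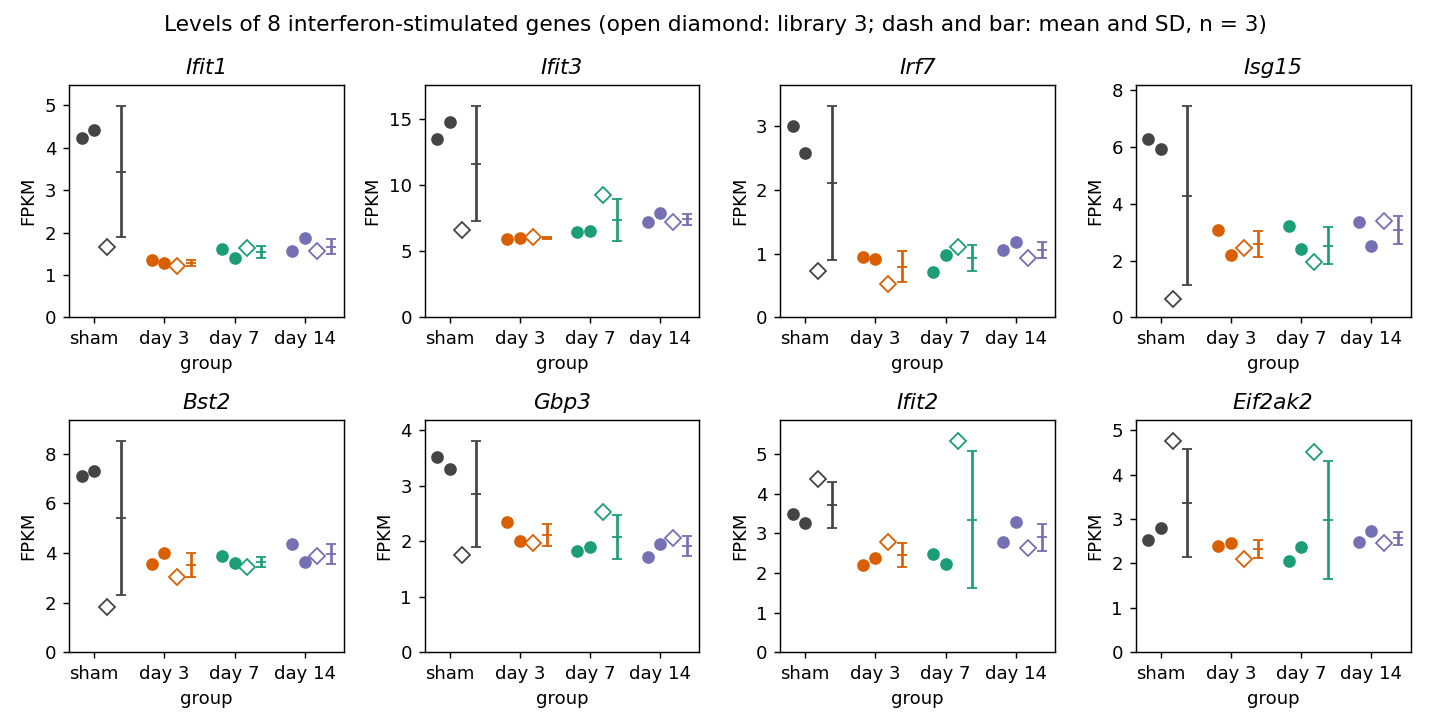
FPKM of 8 genes in every input library by group, with the mean and SD of 3 libraries beside them; open diamonds mark library 3 of each group. For Ifit1, Ifit3, Irf7, Isg15, Bst2 and Gbp3 the 2 filled sham points lie above the rest, while for Ifit2 and Eif2ak2 the highest points are the open diamonds of sham and day 7.

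Bst2, the tetherin that holds budding virus at the cell surface, had 7.10, 7.30 and 1.84 FPKM in sham, 3.54, 3.99 and 3.03 on day 3, 3.86, 3.60 and 3.43 on day 7, and 4.38, 3.62 and 3.88 on day 14. Its sham group held both the highest and the lowest libraries, so that the mean of 5.42 ± 3.10 FPKM (SD, n = 3) describes none of the 3. Oasl2, of the oligoadenylate synthetase family, had 2.29, 2.27 and 1.68 FPKM in sham, 0.947, 0.985 and 1.06 on day 3, 1.06, 0.913 and 2.42 on day 7, and 1.27, 1.48 and 1.17 on day 14. Oas1a, a synthetase that activates RNase L and has close copies in the mouse, had 1.68, 1.53 and 0.163 FPKM in sham, 0.773, 0.521 and 0.598 on day 3, 0.764, 0.511 and 0.815 on day 7, and 0.740, 0.809 and 0.691 on day 14. Rsad2, which encodes viperin, had 1.30, 1.13 and 0.668 FPKM in sham, 0.554, 0.306 and 0.472 on day 3, 0.538, 0.429 and 1.18 on day 7, and 0.559, 0.551 and 0.710 on day 14. For Oasl2 the 3 sham libraries were above the injured ones except day 7 library 3, which was the highest of the 12. For Oas1a sham library 3 was the lowest of the 12, and Rsad2 was again high in day 7 library 3.

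Isg15, a ubiquitin-like protein joined to other proteins during the response, showed a wide span within sham. It had 6.28, 5.94 and 0.653 FPKM in sham, 3.09, 2.21 and 2.44 on day 3, 3.23, 2.42 and 1.96 on day 7, and 3.35, 2.53 and 3.40 on day 14. Every injured library lay between the high pair of sham libraries and the low one. Usp18, the protease that removes ISG15 and restrains the receptor, had 1.18, 1.45 and 0.267 FPKM in sham, 0.734, 0.519 and 0.479 on day 3, 0.635, 0.468 and 0.824 on day 7, and 0.703, 0.728 and 0.682 on day 14, in the same arrangement.

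Genes of ADP-ribosylation and ubiquitin transfer came next. Parp14, an ADP-ribosyltransferase, had 0.959, 1.11 and 0.775 FPKM in sham, 0.522, 0.418 and 0.374 on day 3, 0.470, 0.382 and 0.871 on day 7, and 0.466, 0.522 and 0.565 on day 14. Parp9, which works in a complex with the product of its neighbour Dtx3l, had 1.30, 1.19 and 0.960 FPKM in sham, 0.795, 0.736 and 0.763 on day 3, 0.778, 0.878 and 1.48 on day 7, and 0.848, 0.834 and 0.619 on day 14. In both, the 3 sham libraries were above all injured libraries other than day 7 library 3. Parp9 and Dtx3l overlap by 681 bases on opposite strands, and the sources do not say whether counting used the strand. Trim25, a ubiquitin ligase of the RIG-I pathway, had 2.64, 2.59 and 1.76 FPKM in sham, 1.61, 1.47 and 1.68 on day 3, 1.52, 1.86 and 2.31 on day 7, and 1.79, 1.54 and 1.74 on day 14. Trim30a had 1.57, 1.67 and 1.15 FPKM in sham, 0.796, 0.740 and 0.832 on day 3, 0.814, 0.851 and 2.02 on day 7, and 0.973, 0.956 and 0.914 on day 14. Sham libraries 1 and 2 were the highest of the 12 for Trim25, while day 7 library 3 was the highest for Trim30a.

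The guanylate-binding protein genes Gbp7, Gbp3 and Gbp2, which encode GTPases that attack the membranes of intracellular pathogens, neighbour each other on chromosome 3. Gbp3 (chr3:142560026-142573209) had 3.51, 3.29 and 1.76 FPKM in sham, 2.34, 2.01 and 1.98 on day 3, 1.81, 1.89 and 2.53 on day 7, and 1.71, 1.96 and 2.05 on day 14. Gbp7 had 2.11, 1.85 and 1.54 FPKM in sham, 1.18, 1.46 and 1.48 on day 3, 1.2, 1.2 and 1.29 on day 7, and 1.33, 1.13 and 1.29 on day 14. Gbp7 was the gene with no overlap between the 3 sham and 9 injured libraries. Ddx58, which encodes the RNA sensor RIG-I, had 1.24, 1.22 and 1.58 FPKM in sham, 0.743, 0.689 and 0.853 on day 3, 0.827, 0.932 and 1.52 on day 7, and 0.969, 0.929 and 1.02 on day 14. Sham library 3 and day 7 library 3 were its highest libraries, and the rest of the sham group was above the rest of the injured groups.

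Among genes of other roles, Ifi27, a mitochondrial protein, was the most abundant of the 38, with 19.4, 19.1 and 10.3 FPKM in sham, 15.2, 15.7 and 13.9 on day 3, 14.4, 16.4 and 12.8 on day 7, and 16.0, 17.3 and 18 on day 14. Lgals3bp, a secreted ligand of galectin-3, had 11.1, 11.4 and 6.91 FPKM in sham, 8.30, 7.38 and 8.12 on day 3, 7.35, 7.94 and 6.47 on day 7, and 9.08, 9.99 and 8.70 on day 14. For both, the libraries that stand apart were low, unlike Ifit2 and Eif2ak2. Ifi35, which forms a complex with NMI, had 2.76, 3.61 and 1.57 FPKM in sham, 2.00, 1.5 and 2.15 on day 3, 2.13, 1.78 and 1.64 on day 7, and 2.37, 2.23 and 2.07 on day 14. Its sham libraries 1 and 2 were the highest of the 12. Xaf1, an antagonist of the apoptosis inhibitor XIAP, had 2.65, 2.44 and 2.11 FPKM in sham, 2.18, 2.08 and 2.07 on day 3, 2.05, 2.16 and 2.64 on day 7, and 2.27, 2.26 and 2.47 on day 14, with overlapping groups.

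The remaining 12 genes were lower or more variable. Among them Ifi44 had the largest ratio of all 38, with 0.902 and 0.798 FPKM in sham libraries 1 and 2, 0.263 in sham library 3, 0.452 in day 7 library 3 and 0.123 to 0.245 in the other 8 injured libraries. Zbp1, a sensor of Z-form nucleic acid, had 0.367 and 0.340 FPKM in sham libraries 1 and 2 against 0.0564 to 0.207 in those 8. Oas3 did not exceed 0.0455 FPKM in any library and cannot be ordered. Over all 38 genes, 31 had sham libraries 1 and 2 above the 8 injured libraries, and the 7 that did not were Ifit2, Oas3, Oasl1, Mx2, Eif2ak2, Dtx3l and Xaf1.

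The first comparison asked which genes changed on each day after injury against sham, over all 12 libraries. With limma and Benjamini-Hochberg adjustment over the 15564 genes, 0 of the 32 genes passed an adjusted p of 0.05 in either direction on any day. The background was similarly small, with 0.00643% of all genes called lower and 0.0514% called higher on day 3, 0% and 0.103% on day 7, and 0% and 0.0514% on day 14. The median log2 fold change of the 32 genes was -0.35 on day 3, -0.23 on day 7 and -0.30 on day 14, against 0.03, 0.01 and 0.03 over all genes tested. On each day 31 of the 32 were below 0, the exceptions being Dhx58 on day 3, Mx2 on day 7 and Ifi27 on day 14. At an unadjusted p under 0.05, 15 of the 32 were lower on day 3, 5 on day 7 and 6 on day 14, against 1.86%, 0.732% and 1.51% of all genes tested, and 0 were higher, against 4.38%, 1.79% and 3.41%. With sham library 3 alone left out, 4 genes passed as lower on day 3 and on day 7 (Irf7, Ifit1, Ifit3 and Bst2) and 2 on day 14 (Ifit1 and Bst2), and with day 7 library 3 alone left out, 1 passed on day 3 (Oasl2). The shares of all genes called in these fits with 1 library left out are not given here, so their counts cannot be read as particular to the 32 genes. The 3 contrasts share the sham libraries, so the days are not separate support for each other.

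Ifit1 had the largest fold change, with a log2 of -1.05 ± 0.26 on day 3 (SE, adjusted p = 0.402 by limma), -0.85 ± 0.26 on day 7 (adjusted p = 1) and -0.77 ± 0.26 on day 14 (adjusted p = 0.7). Its group means were 3.43 ± 1.55 FPKM in sham, 1.28 ± 0.0722 on day 3, 1.55 ± 0.134 on day 7 and 1.67 ± 0.170 on day 14 (SD, n = 3), and the spread within sham exceeded that of the injured groups by far. Isg15, in which sham library 3 was lowest, had a log2 fold change of -0.27 ± 0.55 on day 3, -0.30 ± 0.55 on day 7 and -0.05 ± 0.55 on day 14 (SE). Its direction rests on which sham libraries are counted. Without sham library 1 the values were 0.17, 0.14 and 0.39, and without sham library 3 alone the day 3 value was -1.11.

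Without sham library 3 and day 7 library 3, the fit found lower levels after injury for 14 to 22 of the 32 genes, by day. On day 3, 22 of the 32 were lower by the same limma test, against 3.06% of all genes tested. On day 7, 14 were lower, against 0.379%, and on day 14, 17 were lower, against 2.29%. On no day was a gene of the 32 called higher, with a background of 4.01%, 0.732% and 2.42% of all genes on the 3 days. At an unadjusted p under 0.05 in this fit, 29, 31 and 25 were lower, against 8.56%, 5.67% and 7.38% of all genes, and 0 were higher, against 13.3%, 7.28% and 12.5%. The median log2 fold change of the 32 was -0.53, -0.54 and -0.48, and all 32 were below 0 on each day, with a median over all genes of 0.02, 0.00 and 0.02. These calls rest on 2 sham libraries that were nearly alike. When near-identical libraries were averaged, sham and day 7 had 2 samples each and days 3 and 14 had 1. The spread in that fit came only from the 2 libraries that stand apart, so it cannot decide whether a gene differs.

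**Figure D3:**
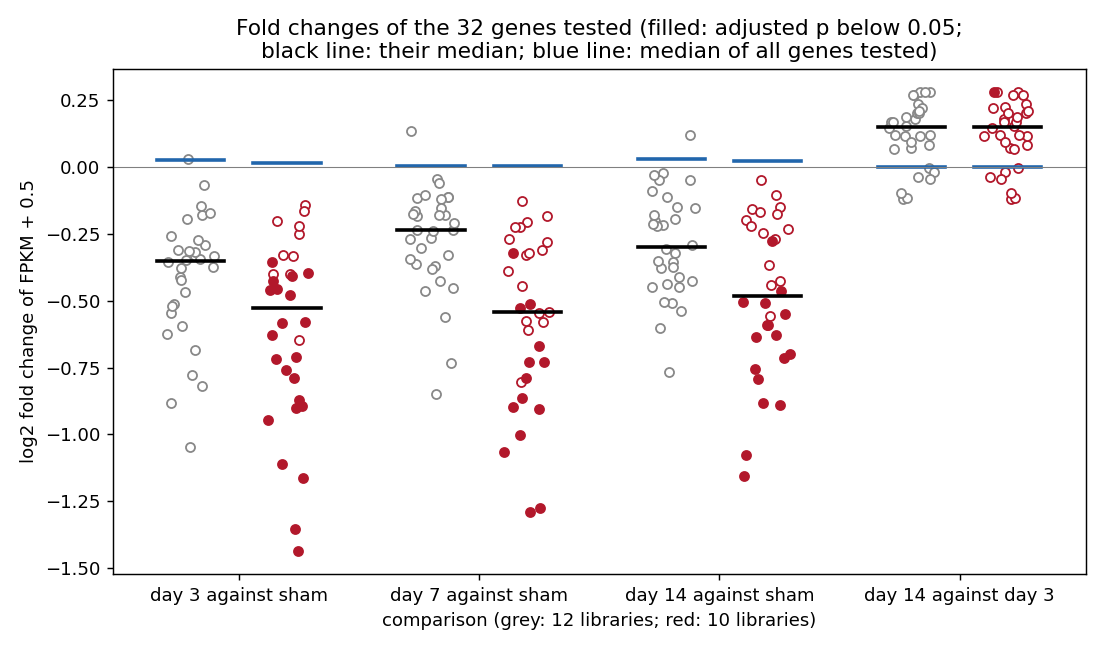
Log2 fold change of FPKM + 0.5 of the 32 genes tested in 4 comparisons, from 12 libraries (grey) and from the 10 left without sham library 3 and day 7 library 3 (red); filled points passed an adjusted p of 0.05, black lines are medians of the 32 and blue lines medians of all genes tested. No grey point is filled, and 22, 14 and 17 red points are filled against sham on days 3, 7 and 14.

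Ifit1 in this 10-library fit fell by 1.44 ± 0.08 on the log2 scale on day 3 (SE, adjusted p = 4.39e-05 by limma), by 1.27 ± 0.09 on day 7 and by 1.15 ± 0.08 on day 14. Irf7 fell by 1.36 ± 0.17 (adjusted p = 0.00225), 1.29 and 1.08 on the 3 days. Ifit3 fell by 1.16 ± 0.05 (adjusted p = 8.5e-06), 1.07 and 0.88. These 3 were the members with the largest changes on day 3. Isg15 fell by 1.11 ± 0.16 (adjusted p = 0.00488), 1.0 and 0.89, and Bst2 fell by 0.95 ± 0.10 (adjusted p = 0.00131), 0.87 and 0.79. Oasl2 fell by 0.89, 0.91 and 0.63, Usp18 by 0.76, 0.79 and 0.59, and Parp14 by 0.71, 0.73 and 0.59. Trim30a fell by 0.72, 0.67 and 0.55, Gbp3 by 0.58, 0.73 and 0.70, Trim25 by 0.58, 0.51 and 0.51, and Irf9 by 0.40, 0.32 and 0.28. Each of these 12 genes passed on all 3 days, as did Oas1a, which fell by 0.90, 0.90 and 0.76. Those that passed on none of the 3 included Ifit2, Cmpk2, Eif2ak2, Mx2, Xaf1 and the sensors Ifih1 and Dhx58.

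Day 7 library 3 was above the other 8 injured libraries for 22 of the 32 genes, against 36.9% of all genes tested, and below them for 3, against 39.9%. Sham library 3 was below sham libraries 1 and 2 for 26 of the 32, against 48.8%. Libraries 1 and 2 and library 3 therefore gave opposite orders of day 7 and sham for most of the genes. The mean of day 7 libraries 1 and 2 over that of sham libraries 1 and 2 had a median of 0.622 over the 32 genes and was above 1 for 0 of them, against 52% of all genes tested. The ratio of day 7 library 3 to sham library 3 had a median of 1.35 and was above 1 for 27 of the 32, against 53.2%. Oas1a had ratios of 0.397 and 5.01, Isg15 of 0.462 and 3.00, Usp18 of 0.418 and 3.08, and Irf7 of 0.304 and 1.51. Ifit1 had 0.346 and 0.996, so that its 2 libraries that stand apart had like levels. Each such ratio rests on 1 or 2 libraries a side, and no test was made of it.

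**Figure D4:**
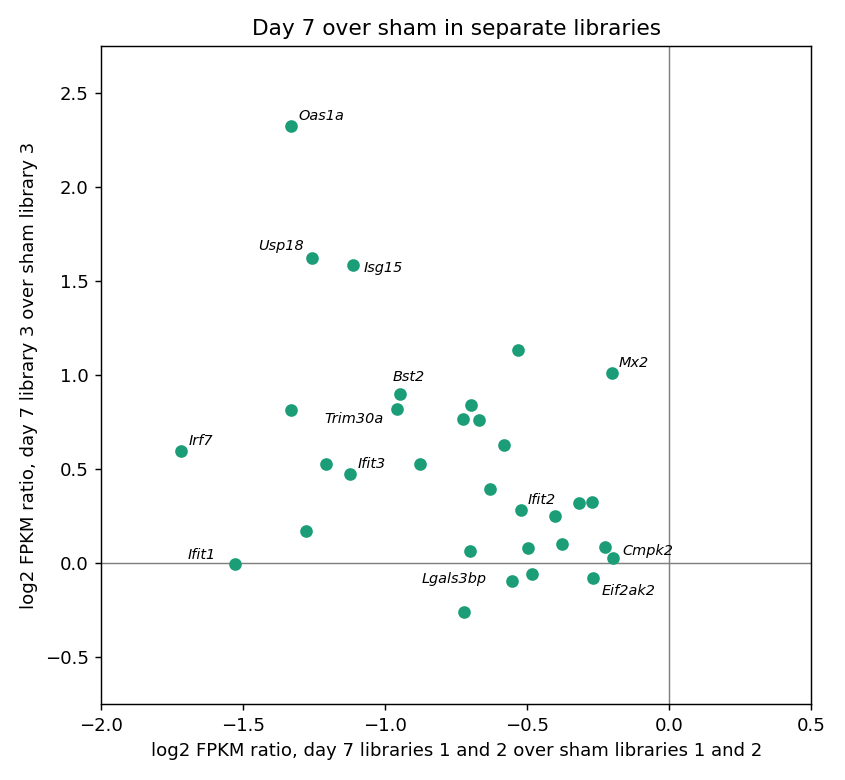
Each point is 1 of the 32 genes tested; the x axis is the log2 FPKM ratio of day 7 to sham in libraries 1 and 2 (means), the y axis the same ratio in library 3 of each group, with lines at 0. Every point lies left of 0 on the x axis and 27 lie above 0 on the y axis.

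The injured days were compared with each other in the same fits. Over 12 libraries 0 of the 32 passed by limma for day 7 against day 3, for day 14 against day 7 or for day 14 against day 3, with 0.00643%, 0.0129% and 0.0129% of all genes called higher and 0.00643%, 0.0193% and 0% called lower. The median log2 fold change of the 32 was 0.17, -0.04 and 0.15 in that order, and 0.05, 0.12 and 0.15 without sham library 3 and day 7 library 3, so the direction of day 14 against day 7 turned. All 3 day 14 libraries were above all 3 day 3 libraries for 12 of the 32, among them Ifit1, Ifit3, Irf9, Stat2, Oasl2 and Lgals3bp, against 11.8% of all genes tested, and below them for 0, against 9.87%. At an unadjusted p under 0.05 the 3 comparisons had 0, 0 and 1 of the 32 higher, against 1.86%, 2.27% and 0.829% of all genes, and 0 lower, against 2.2%, 2.18% and 0.925%. Without the 2 libraries that stand apart, 0 passed for day 7 against day 3, where 1.16% of all genes were called higher and 0.874% lower, and 0 for day 14 against day 7, where the shares were 1.08% and 1.61%. At an unadjusted p under 0.05 in that fit, 1 of the 32 was higher for day 7 against day 3, against 6.47% of all genes, and 4 for day 14 against day 7, against 9.67%. For day 14 against day 3, 9 were higher, against 7.98%: Stat2, Irf9, Ddx58, Ifit1, Ifit3, Oasl2, Trim30a, Ifi27 and Lgals3bp. In these 3 comparisons 0 were lower, against 8.74%, 6.67% and 7.34%. In the same fit 1 gene passed for day 14 against day 3, Ifit3, by 0.28 ± 0.05 on the log2 scale (SE, adjusted p = 0.0227 by limma), against 0.932% of all genes called higher and 1.05% called lower. For that gene the day 14 libraries had 7.18 to 7.88 FPKM and the day 3 libraries 5.94 to 6.10.

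Ligands, receptors and signalling genes of the pathway were read from a separate list. Of 34 such genes 29 were found and 21 were tested, and 0 passed by limma over 12 libraries on any day. At an unadjusted p under 0.05, 5, 2 and 1 of the 21 were higher on days 3, 7 and 14, against 4.38%, 1.79% and 3.41% of all genes. Lower were 1, 0 and 0, against 1.86%, 0.732% and 1.51%. The median log2 fold change of the 21 was 0.04 on day 3. The interferon genes of the list that were analysed here were Ifna2, at no more than 0.00723 FPKM, and Ifng, at no more than 0.0322 FPKM in any library. The receptor gene Ifnar1 had 8.25 FPKM in sham library 3, 7.27 in day 7 library 3 and 5.47 to 6.22 in the other 10, and Ifnar2 had 4.26, 5.10 and 4.04 to 4.59 in the same order. Outside those 2 libraries the sham and injured values of both overlapped. Without the 2 libraries that stand apart, 3 of the 21 were lower and 2 higher on day 3 by the same limma test. On day 7, 1 was lower and 0 higher, and on day 14, 2 were lower and 0 higher. In that fit 3.06%, 0.379% and 2.29% of all genes were called lower and 4.01%, 0.732% and 2.42% higher. Those lower included Irf3 and Traf3 on day 3 and Traf3 on day 14, and those higher on day 3 were Ifngr2 and Sting1. Irf3, a transcription factor that turns on interferon genes, fell by 0.27 on the log2 scale on day 3 (adjusted p = 0.0193), and Sting1, the adaptor of cytosolic DNA sensing, rose by 0.53 (adjusted p = 0.0174).

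A second list, of 50 other interferon-stimulated genes, went the same way as the members in part. Of these 30 were tested and 0 passed by limma over 12 libraries, with median log2 fold changes of -0.18, -0.21 and -0.18 on the 3 days. At an unadjusted p under 0.05, 7, 7 and 4 were lower, against 1.86%, 0.732% and 1.51% of all genes, and 2 (Ifitm1 and Ifitm2), 0 and 0 were higher, against 4.38%, 1.79% and 3.41%. Without the 2 libraries, 13 of the 30 were lower and 1 higher on day 3, 8 lower and 0 higher on day 7, and 9 lower and 0 higher on day 14. In that fit 3.06%, 0.379% and 2.29% of all genes were called lower and 4.01%, 0.732% and 2.42% higher. The largest falls on day 3 were those of Tgtp1 and Irgm2, GTPases that act on the vacuoles of intracellular pathogens, by 0.97 and 0.79 on the log2 scale, followed by Slfn2, Sp100 and Tgtp2. The exception was Ifitm2, of the membrane proteins that restrict viral entry, which rose by 0.47 on day 3, while its neighbour Ifitm3 fell by 0.51.

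Markers of cell types that the tissue holds or could hold were read in the same libraries. Of the microglial markers, Tmem119 had 3.43 to 4.08 FPKM in the 3 sham libraries, 5.13 to 6.62 in the 8 injured libraries and 6.26 in day 7 library 3. Cx3cr1 had 5.76 to 6.99, 7.35 to 9.89 and 10.9 FPKM in the same order, and Csf1r had 7.98 to 12.1, 13.6 to 15.9 and 14.1. The summed level of 4 endothelial markers was 36.7 and 38 FPKM in sham libraries 1 and 2, 24.8 and 25.0 in the 2 libraries that stand apart, and 30.7 to 34.9 in the other 8. Markers of T and NK cells summed to 0 to 0.368 FPKM over the 5 of 6 found, 4 of them below 0.1 FPKM in every library. B cell markers summed to 0.256 to 1.2 FPKM. The 4 plasmacytoid dendritic cell markers summed to 43.6 to 52.3 FPKM, of which Pacsin1, which neurons also express, made up 37.6 to 48.4. Of the others, Ccr9 did not exceed 0.0242 FPKM, and Klk1 was listed at 0 in all libraries but day 3 library 1, which had 0.274. Erythroid markers summed to 188 to 316 FPKM in sham and 354 to 691 after injury. Blood myeloid markers summed to 7.41 to 8.19 FPKM in sham, 9.02 to 21.6 on day 3, 13.1 to 15.3 on day 7 and 6.83 to 7.35 on day 14. Astrocyte markers summed to 443 to 476, 479 to 481, 516 to 582 and 408 to 418 FPKM in the same order. Neuronal markers summed to 1168 and 1169 FPKM in sham libraries 1 and 2, 903 in sham library 3, 809 in day 7 library 3 and 1107 to 1136 in the other 8. What these cells contribute to the levels of the interferon-stimulated genes was not tested.

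The m6A enrichment gave 1 list of peaks for each group, with no values per library, so no peak difference could be tested. Fold enrichment of the enriched over the input signal is the authors' own value for each peak and describes that list only. The 38 genes held 51 of 32669 peaks in sham, 60 of 40195 on day 3, 53 of 34136 on day 7 and 56 of 38655 on day 14. At least 1 peak was listed for 27, 32, 28 and 28 of the 38 in that order. Of the 32 genes tested for RNA level, 25, 28, 25 and 26 had a peak, while 74.4%, 85.5%, 76.6% and 85.1% of all genes tested had one. In 25 of the 38 a peak was listed in every group, and in 3, Oas2, Oas3 and Usp18, in none. Irf7 had a peak on day 14 alone, Bst2, Mx1 and Ifi35 on day 3 alone, Gbp2 on day 14 alone and Trim30a in sham alone. The log10 false discovery rates of these peaks ran from -1.15 for Mx1 to -5.96 for Irf7. How many of all genes had a peak in every list, in 1 alone or in none was not counted. These counts therefore say nothing particular to the 38 genes or to a group.

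Most peaks of these genes lay in the 3′ UTR by the authors' annotation. The share was 66.7% in sham, 68.3% on day 3, 66.0% on day 7 and 62.5% on day 14, against 48.4%, 50.7%, 49.3% and 51.5% of all peaks. The median fold enrichment was 5.79, 5.13, 5.41 and 4.48, beside 6.03, 4.54, 5.37 and 4.52 over all peaks. Of the 51 sham peaks, 25 overlapped a day 3 peak reciprocally by at least 50% (49% of the sham and 41.7% of the day 3 peaks), 29 a day 7 peak (56.9% and 54.7%) and 27 a day 14 peak (52.9% and 48.2%). Over all sham peaks the shares were 47.6%, 52.1% and 48.6%.

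Isg15 carried the peak of highest fold enrichment among the 38 genes in sham, at chr4:156199455-156199777 with 34.8. Its peaks on days 3, 7 and 14 had the same lower coordinate and spanned more of the gene, with 37.5, 29.1 and 11.1. Ifit3 had a peak in the 3′ UTR in every list, at chr19:34588022-34588731 in sham with a fold enrichment of 15.1, and with 12, 12 and 12.1 on days 3, 7 and 14. Trim25 had 1 at chr11:89016398-89016997 in sham with 16.4, and with 12, 11.2 and 16.9 on the 3 days. Both genes thus kept a peak at one place at each time. Parp14 had the most peaks, 6 or 7 in each list. No enrichment values were given per library, and whether these folds differ beyond the spread between libraries was not tested.

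**Figure D5:**
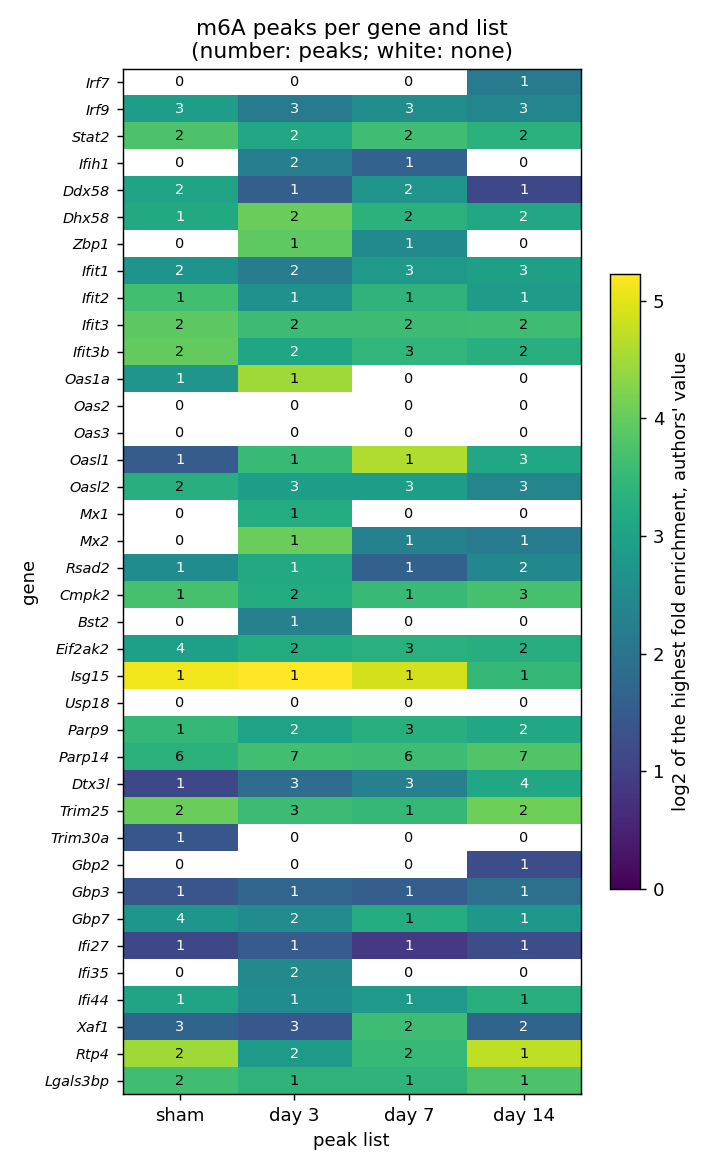
Rows are the 38 genes and columns the 4 peak lists; the printed number is the count of m6A peaks and colour is log2 of the highest fold enrichment as given by the authors, with white where no peak was listed. Isg15 has the brightest cells in sham and on day 3 (34.8 and 37.5), and the rows of Oas2, Oas3 and Usp18 are white throughout.

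Set beside the promoters, the 16 genes with the response element in the window had a median ratio of sham libraries 1 and 2 to the 8 injured libraries of 1.72, with a range of 1.12 to 2.92, and the 12 without it had 1.46, with a range of 1.13 to 4.71. The ranges overlapped, and both Eif2ak2, with the lowest ratio, and Ifit1, with the highest of the first set, held the element. Irf7 and Ifi44, with ratios of 3.07 and 4.71, did not hold it in these windows. The 16 include Oas3 and the 12 include Oasl1 and Ifi44, which had means below 0.5 FPKM and were not tested.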

How the data were processed

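RNA was measured in 12 input libraries of mouse spinal cord, 3 in each of 4 groups, and m6A by 1 peak list per group; grouping follows the sample labels. The deposited gene table gives FPKM per the file headers. The peak tables give, per the file headers, a fold enrichment as a ratio of enriched over input, made by the authors, and lg.p and lg.fdr as a deposited score, base 10 logarithms of p and false discovery rate. Per the submitters' processing notes HISAT2, StringTie, ChIPseeker and edgeR were used. The sources used here do not give versions, the peak caller, the strand setting or the build. Peak starts were raised by 1 base to count from 1.

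Depth is unknown, since low FPKM values showed no steps of whole reads, so no counting error is given and precision comes from the spread between libraries. Genes with a mean of at least 0.5 FPKM were fitted as log2(FPKM + 0.5), 4 group means in 1 model, by lmFit and trended eBayes of limma 3.58.1 (R 4.3.3), with Benjamini-Hochberg adjustment per contrast over all genes and a threshold of 0.05; fold changes on this scale understate those of low genes. The fit was tested on simulated data. Same-numbered sham and day 7 libraries deviated together from their group means (r = 0.46, 0.53 and 0.79). Library 3 stood apart in both groups, and this alone makes libraries 1 and 2 of both deviate together. The sham and day 7 values therefore do not show a pairing. Each day 3 library also correlated best with the same-numbered library of day 7 (r = 0.04 to 0.16) and of day 14 (r = 0.09 to 0.21). These correlations were weak, no label states a pairing, and the values do not settle whether there was one. The members, lists and the 2 libraries set apart were chosen with earlier results of these data known. Values in every library are given for genes with a mean of at least 2 FPKM or that passed with or without those 2 libraries. Alternatives were a pseudocount of 0.1 or 1, the filter removed or raised to 5 FPKM, TPM and median-of-ratios scaling, a replicate block, each library left out, near-identical libraries averaged, and other peak and motif rules. Some genes of the lists are not reported here by name.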

Additional observations from a re-analysis of the deposited data

How the results depend on the processing

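Counts of the 32 genes lower than sham depended on sham library 3 and day 7 library 3. Without both they were 22, 14 and 17 on days 3, 7 and 14, with medians of -0.53, -0.54 and -0.48 on the log2 scale, and 1 gene was higher on day 14 than on day 3; the cause was not tested. Leaving out 1 library at a time gave 0 to 4 lower genes on day 3, 0 to 4 on day 7 and 0 to 2 on day 14, and medians of -0.53 to -0.31, -0.39 to -0.15 and -0.48 to -0.23; the highest counts came without sham library 3, and without day 7 library 3 there was 1 on day 3. The shares of all genes called with 1 library left out are not given here. With a filter of 5 FPKM, 5 genes were left and the day 14 median was -0.0469. Pseudocounts, no filter, TPM and median-of-ratios scaling changed none of the counts of genes called, and kept every median below 0 against sham.

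Single genes changed sign against sham. Averaging near-identical libraries gave Isg15 0.16, 0.0509 and 0.38 on days 3, 7 and 14, and Bst2 0.070 and Usp18 0.0277 on day 14. On day 14 Isg15 was 0.0433 with a pseudocount of 0.1 and 0.012 as TPM. Leaving out 1 library gave Isg15 ranges of -1.11 to 0.17, -1.14 to 0.14 and -0.89 to 0.39 on the 3 days, Bst2 -0.79 to 0.0757 on day 14 and Usp18 -0.59 to 0.0836 on day 14.

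Of 18 pairs of same-numbered libraries in different groups, 7 had deviations correlated over 0.1 (r from -0.11 to 0.79). Among them were all 3 pairs of sham and day 7, the groups in which library 3 stood apart. Of the 18, 12 correlated best with their own number. A replicate block left 0 of the 32 genes passing in each comparison, sham and day 7 included. Sham peaks shared with days 3, 7 and 14 were 47, 44 and 44 of 51 by an overlap of 1 base (92.2%, 86.3% and 86.3%). Over all sham peaks these shares were 86.1%, 80.8% and 85.4%. By 80% they were 15, 17 and 18 (29.4%, 33.3% and 35.3%), against 26.1%, 31.4% and 26.7% of all sham peaks. The element was in 39.3% of the member genes with a promoter, against 1.69% of all genes, in a window of 100 bases before to 50 after the start, and in 67.9% against 7.27% with 1 or 2 bases between its GAAA parts. Depth is unknown, so genes below 0.5 FPKM were described and not tested.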
